A study of Mus musculus with 50 samples.

Results

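Lipid droplet genes were examined as 10 named genes, Plin1, Plin2, Plin3, Plin4, Plin5, Cidea, Cideb, Cidec, Pnpla2 and G0s2. They were taken by name from gene count files that list 24984 genes, and all 10 were found. Their expression was followed by RNA-seq in 38 libraries of 10 groups, and chromatin accessibility at their start sites by ATAC-seq, which maps open DNA, in 12 libraries. The mice were C57BL/6 and, per the methods of the study, those of the age series were female. Untreated kidney and liver came from young mice of 2.5 months and old mice of 23 to 25 months, with 4 RNA-seq and 3 ATAC-seq libraries per group. Mice of 20 to 21 months had been given DMSO, the solvent control, or an agent named 3C, and their kidney and liver gave 4 RNA-seq libraries per group. Skin fibroblasts labelled P9 with DMSO or 3C gave 3 RNA-seq libraries per group. The labels state neither what 3C is nor what P9 stands for, and they do not say whether replicates came from separate animals or cultures, so p-values measure the spread between these libraries.

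A lipid droplet is a core of triglyceride and sterol ester wrapped in a phospholipid monolayer, on which proteins decide how much fat is stored and how much is released. Perilipins coat the droplet and control access of lipases to the core. Plin1 and Plin4 are typical of adipocytes, Plin2 coats droplets in most cells, Plin3 is a widely expressed protein that moves from the cytosol to new droplets, and Plin5 is found in tissues that burn much fat and ties droplets to mitochondria. The CIDE proteins act where droplets touch, and Cidea and Cidec help them fuse and grow in adipocytes, while Cideb serves lipid loading of lipoproteins in liver. Pnpla2 encodes adipose triglyceride lipase, the enzyme that starts triglyceride breakdown, and G0s2 encodes its small protein inhibitor. In liver these genes follow fasting and feeding, and several of them are known targets of PPAR factors. The RNA of a whole organ also holds that of fat attached to it, and a smaller number of expressing cells cannot be told apart from less RNA per cell in such samples.

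The promoters of 5 genes are shown because results below concern these genes. Plin2 was the most abundant perilipin in liver and fibroblast controls, G0s2 was the gene that rose with 3C, and Plin3, Plin4, Plin5 and G0s2 had start sites at which ATAC-seq peaks of old and young libraries did not overlap in height. Each window runs from 250 bases before to 50 bases after the start site and is given 5′ to 3′ along the gene's own strand, from RefSeq on GRCm38.p6, with exact motif matches in capitals. All 5 genes lie on the minus strand. RefSeq windows were found for 9 of the 10 genes, 11 windows in all.
Plin2, chr4:86670010-86670309: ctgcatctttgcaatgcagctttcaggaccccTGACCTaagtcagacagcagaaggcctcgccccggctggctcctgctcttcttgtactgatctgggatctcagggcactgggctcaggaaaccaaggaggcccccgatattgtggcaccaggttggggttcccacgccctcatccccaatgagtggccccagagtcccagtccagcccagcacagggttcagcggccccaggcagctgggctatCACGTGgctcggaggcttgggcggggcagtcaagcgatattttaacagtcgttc
Plin3, chr17:56290462-56290761: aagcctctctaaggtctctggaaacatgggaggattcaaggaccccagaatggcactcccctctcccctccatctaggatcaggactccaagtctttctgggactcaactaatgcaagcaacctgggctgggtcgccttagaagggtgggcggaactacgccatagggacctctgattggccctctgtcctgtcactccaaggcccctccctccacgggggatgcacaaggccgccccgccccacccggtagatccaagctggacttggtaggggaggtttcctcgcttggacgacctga
Plin4, chr17:56109733-56110032: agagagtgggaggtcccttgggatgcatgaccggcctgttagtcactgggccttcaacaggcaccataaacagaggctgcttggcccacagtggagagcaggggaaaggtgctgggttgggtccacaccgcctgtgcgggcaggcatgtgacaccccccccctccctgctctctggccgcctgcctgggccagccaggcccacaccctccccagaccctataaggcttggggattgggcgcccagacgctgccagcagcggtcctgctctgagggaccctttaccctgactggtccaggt
Plin5, chr17:56117499-56117798: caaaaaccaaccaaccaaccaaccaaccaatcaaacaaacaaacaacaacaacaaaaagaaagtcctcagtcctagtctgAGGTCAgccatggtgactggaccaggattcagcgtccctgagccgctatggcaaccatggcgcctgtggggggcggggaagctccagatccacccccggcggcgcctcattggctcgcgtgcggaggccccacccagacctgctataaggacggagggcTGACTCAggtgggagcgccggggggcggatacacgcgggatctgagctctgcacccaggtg
G0s2, chr1:193273139-193273438: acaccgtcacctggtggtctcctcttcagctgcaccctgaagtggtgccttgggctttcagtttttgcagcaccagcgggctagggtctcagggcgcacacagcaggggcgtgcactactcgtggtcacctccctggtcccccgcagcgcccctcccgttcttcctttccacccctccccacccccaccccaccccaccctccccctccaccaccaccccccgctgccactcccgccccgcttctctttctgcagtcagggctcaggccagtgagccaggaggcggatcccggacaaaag

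The 11 windows were searched on both strands for AGGTCA, the core recognised by PPAR and RXR, for TGANTCA of AP-1, for TATAAA, for CACGTG (E-box) and for TTGCGCAA (C/EBP), and no matches overlapped. Plin2 held the PPAR and RXR core, read as TGACCT at position -218, and an E-box at -4. Plin5 held AGGTCA at -170 and the AP-1 motif TGACTCA at -11, and its second window held AGGTCA at 14. TGACTCA also stood at -96 in a window of Cidec and at 14 in that of Cideb, which had TATAAA at -172 as well. Plin1, Plin3, Plin4, Pnpla2 and G0s2 held none of these letters. Of all 32851 mouse promoters of this length, 16.3% held AGGTCA, 7.81% TGANTCA, 13.6% TATAAA, 7.15% CACGTG and 0.183% TTGCGCAA.

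The genes lie on 7 chromosomes of GRCm38. Plin4 (chr17:56100591-56109803), Plin5 (chr17:56111601-56117596) and Plin3 (chr17:56277476-56292873) are neighbours on the minus strand of chromosome 17. Plin1 lies at chr7:79720218-79732903, Plin2 at chr4:86648386-86670060, Cidec at chr6:113424634-113435760 and G0s2 at chr1:193272161-193273217, all on the minus strand. Pnpla2 (chr7:141455198-141460743) and Cidea (chr18:67343604-67367785) lie on the plus strand. Cideb (chr14:55754050-55758458, minus strand) shares 76.3% of its exon length with Nop9 on the opposite strand, and because reads were counted without regard to strand its values are uncertain.

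Total counts per library ran from 14.2 M to 43.7 M. Levels are given as CPM, that is, counts scaled to a common library size, after scaling with the normalization factors of the comparison that holds the library, and levels of different genes were compared only as CPM per kb of exon. Correlations used log2 CPM scaled by library totals alone, without these factors. The DMSO and 3C series was not compared with the young and old series, because their deposited tallies of unaligned reads show that they were handled differently. Kidney and liver carried their own markers at high level, with a sum over 7 tubule and podocyte genes of 15698 to 34827 CPM in kidney and a sum over 6 hepatocyte genes of 71587 to 208387 CPM in liver. Fibroblasts carried a sum of 14369 to 18597 CPM over 6 fibroblast markers. Old kidney replicate 2 stood apart with 2752 CPM of the hepatocyte gene Alb, against 14.8 to 47.5 CPM in the other old kidney libraries. Fat cell markers were present in kidney and are given with the kidney results.

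Each tissue had its own set of droplet coat transcripts. In young liver Plin2 was the leading perilipin at 147 ± 58.0 CPM per kb (SD, n = 4), followed by Plin5 at 28.5 ± 11.6 and Plin3 at 8.01 ± 1.13, while Plin4 stood at 0.250 ± 0.164 and Plin1 was represented by 1 read in the 4 libraries together. In young kidney Plin2 (28.3 ± 3.22 CPM per kb) and Plin3 (21.0 ± 2.41) were the leading perilipins, and Plin1, Plin4 and Plin5 stood at 3.97 ± 1.37, 2.59 ± 1.14 and 2.98 ± 1.24. DMSO fibroblasts expressed Plin2 (52.5 ± 3.83 CPM per kb, n = 3) and Plin3 (34.1 ± 1.44) with little Plin4 (0.364 ± 0.0556). No read of Plin5 or Cidec was found in DMSO fibroblasts, where 0 reads over the group allow up to 0.0473 CPM, and Plin1 and Cidea had 1 and 5 reads in all.

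**Figure D1:**
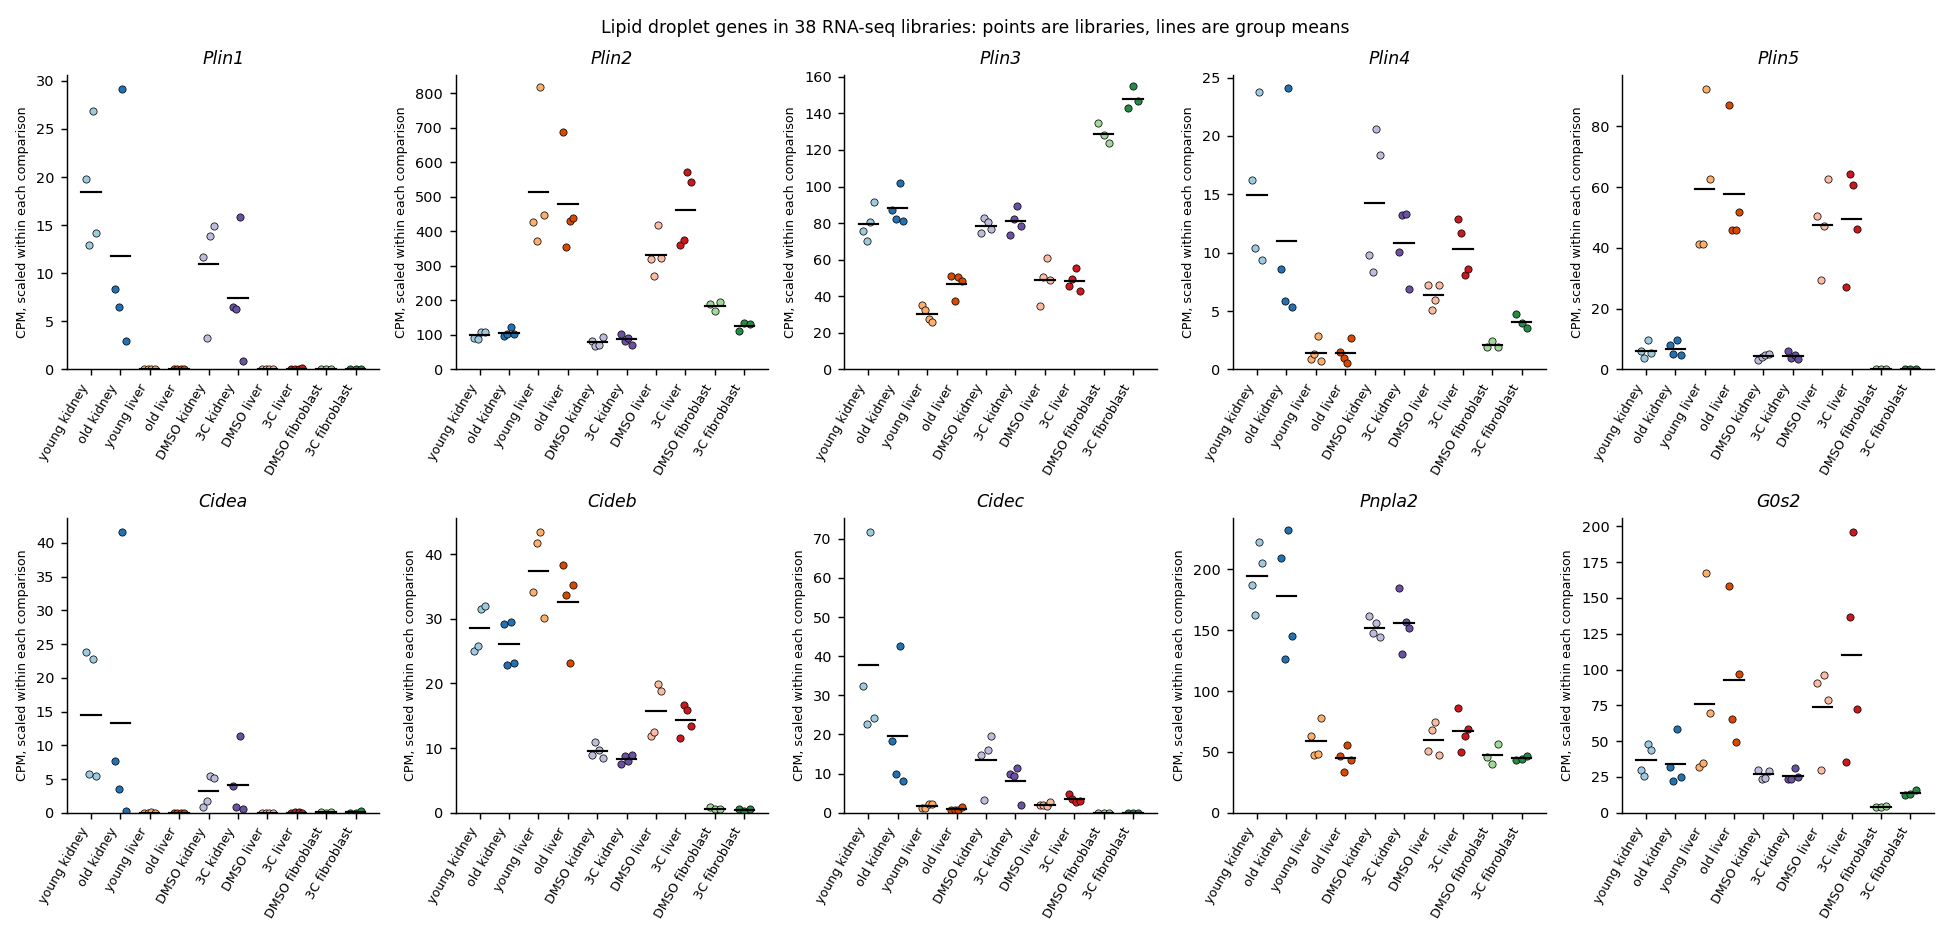
Level of each of the 10 genes in 38 libraries, as CPM scaled within each comparison on a linear axis from 0; points are libraries, lines are group means, and groups run from young kidney to 3C fibroblasts. Plin5 is high in liver, Plin1, Cidea and Cidec in kidney, and G0s2 is higher in all 3 fibroblast libraries with 3C (12.2 to 16.1 CPM) than in all 3 with DMSO (3.84 to 4.85 CPM).

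As a share of the summed perilipin transcripts per kb, Plin2 made up 79.6% ± 1.89 in young liver and 48.2% ± 1.99 in young kidney (SD, n = 4). Plin3 made up 35.8% ± 3.03 in young kidney and 4.83% ± 1.80 in young liver, and Plin5 made up 15.4% ± 2.17 in young liver. In DMSO fibroblasts Plin2 and Plin3 together were nearly the whole, with 60.4% ± 2.13 and 39.2% ± 2.06 (n = 3). The order was turned in 3C fibroblasts, where Plin3 took 51.6% ± 1.82 and Plin2 47.4% ± 2.02. The ranges of the Plin2 share did not overlap between DMSO (58.4% to 62.6%) and 3C fibroblasts (45.1% to 49.0%). Among CIDE transcripts Cideb was 96.2% ± 1.54 in young liver, whereas young kidney carried Cideb, Cidec and Cidea at 40.3% ± 14.1, 37.0% ± 7.64 and 22.7%.

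**Figure D2:**
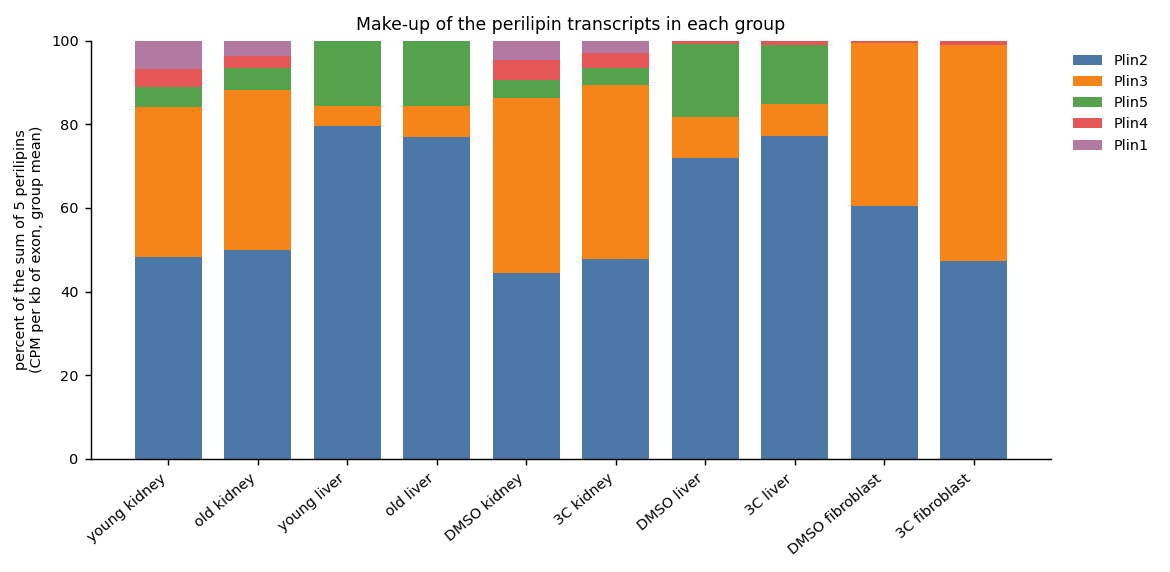
Mean share of each perilipin in the sum of the 5 perilipin transcripts (CPM per kb of exon, in percent) for the 10 RNA-seq groups. Plin2 takes 72.0% to 79.6% in the liver groups and 44.5% to 49.9% in the kidney groups, Plin5 has its largest shares in liver, and Plin3 exceeds Plin2 in 3C fibroblasts.

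The lipase and its inhibitor are given per kb on scales set within each organ, so that the 2 genes can be compared within an organ but not each gene between organs. Pnpla2 stood at 64.4 ± 8.47 CPM per kb in young kidney and 19.6 ± 4.69 in young liver, and G0s2 at 42.4 ± 12.3 and 87.2 ± 72.8. In DMSO kidney and DMSO liver Pnpla2 stood at 50.4 ± 2.58 and 19.9 ± 4.35 CPM per kb, and G0s2 at 30.7 ± 3.70 and 84.8 ± 34.7. The spread of G0s2 in liver was wide in every liver group. In 3C liver its 4 libraries read 35.7, 137, 196 and 72.5 CPM.

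Liver was compared with kidney among young mice and, apart, among DMSO mice, to show which droplet genes belong to which organ. Calls required a fold change above 2 or below 0.5 and, in edgeR's quasi-likelihood test over all genes, a p under 0.05 after Benjamini-Hochberg adjustment. In young mice 4 of the 10 genes were called higher in liver, where 16.9% of the 14057 genes tested were called higher, and 4 were called lower, where 25.7% were. The higher genes were Plin2, Plin5, Cideb and G0s2, and the lower ones Plin1, Plin4, Cidea and Cidec. In DMSO mice 4 were called higher (15.7% of 14981 genes) and 3 lower (26.6%), the same genes without Plin4. Liver and kidney libraries did not overlap for 4 genes higher in liver (27.4% of all genes) and 5 lower (33.2%) in young mice, and for 4 higher (30.9%) and 2 lower (36.9%) in DMSO mice.

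On a scale set across both organs, Plin5 read 4.17, 2.48, 6.62 and 3.63 CPM in young kidney and 59.1, 58.4, 132 and 89.4 CPM in young liver. Every liver library was far above every kidney library, with a log2 fold change of 4.34 (SE 0.35, edgeR adjusted p = 3.69e-07). Plin2 read 62.7, 60.1, 74.2 and 73.3 CPM in young kidney against 611, 525, 1166 and 637 CPM in young liver, a log2 fold change of 3.44 (SE 0.25, edgeR adjusted p = 1.61e-07). In DMSO mice the log2 fold changes of Plin5 and Plin2 were 4.47 (SE 0.24) and 3.08 (SE 0.16), with edgeR adjusted p-values of 6.94e-09 and 7.34e-09. Plin2 and Plin5 were the perilipins called higher in liver in both series. Cidec went the other way, with 22.3, 15.4, 48.4 and 16.3 CPM in young kidney and 1.82, 1.69, 3.24 and 3.27 CPM in young liver. Its log2 fold change was -3.37 (SE 0.41, edgeR adjusted p = 1.50e-05) in young mice and -1.70 (SE 0.43, edgeR adjusted p = 0.00356) in DMSO mice, where kidney and liver libraries overlapped.

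Plin1 and Cidea had many reads in kidney and next to none in liver. Plin1 had 1271 reads in the 4 young kidney libraries and 1 in the 4 young liver libraries, and 774 against 0 in the DMSO series. Cidea had 983 against 1 read and 224 against 0. No fold is given for these genes, since a fitted fold depends on the prior count at such low values, and 0 reads over the DMSO liver group allow up to 0.0407 CPM. Both genes are adipocyte genes. The sum of 5 adipocyte markers, Adipoq, Retn, Lep, Cfd and Adig, was 0 to 0.247 CPM in young liver, with 3 of the 5 markers at 0 in all libraries. Adipoq, Retn, Cfd and Adig were called lower there than in young kidney. Like Plin1 and Cidea, they passed the filter on low counts through kidney alone, so these calls add nothing to the read counts.

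The remaining genes depended on the scaling. The liver libraries spend a large share of reads on few genes, and scaling by library totals alone moved the median log2 fold change of all genes from -0.08 to -1.16 in young mice and from -0.07 to -1.06 in DMSO mice. On that scale the log2 fold changes of G0s2 and Cideb in young mice were 1.004 and 0.39, with edgeR adjusted p-values of 0.0528 and 0.0530, against 2.11 (SE 0.47) and 1.46 (SE 0.15) on the main scale. Pnpla2 was lower in liver on both scales, with -0.65 (SE 0.17, edgeR adjusted p = 0.00631) on the main scale, under the fold threshold, and a called -1.74 with library totals (edgeR adjusted p = 1.25e-06). Plin3 had a log2 fold change of -0.32 (SE 0.14, edgeR adjusted p = 0.0589) in young mice and 0.30 (SE 0.14, edgeR adjusted p = 0.0815) in DMSO mice, which with library totals became a called -1.38 (edgeR adjusted p = 1.28e-05) and -0.71. Plin4 was at -2.30 (SE 0.43, edgeR adjusted p = 5.01e-04) in young mice and at -0.16 (SE 0.27, edgeR adjusted p = 0.611) in DMSO mice, which with library totals became -3.38 and a called -1.15 (edgeR adjusted p = 0.00322). In DMSO mice Cideb was no longer called with library totals, at a log2 fold change of 0.71, while G0s2 was (1.46, edgeR adjusted p = 5.71e-04).

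With age none of the droplet genes was called in kidney, where 5.68% of 14495 genes were called higher and 0.407% lower in old mice. The count at an unadjusted p under 0.05 was 0 of 10 as well, against 16.4% of genes higher and 13.6% lower, and DESeq2 called 0 of 10. Old and young libraries overlapped for all 10, whereas 10.9% of genes had every old library higher and 6.98% every old library lower. Plin2, the coat protein of most cells, read 91.3, 88.3, 110 and 109 CPM in young kidney and 97.0, 103, 123 and 103 CPM in old kidney. The groups overlapped, and the log2 fold change was 0.10 (SE 0.12, edgeR adjusted p = 0.593). Plin3 had a log2 fold change of 0.15 (SE 0.12), Plin5 of 0.14 (SE 0.34), Cideb of -0.13 (SE 0.14), Pnpla2 of -0.12 (SE 0.20) and G0s2 of -0.10 (SE 0.31). The precision differed widely between genes, since Cidea with a log2 fold change of -0.13 had an SE of 1.05.

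Of the 10 genes, Cidec, Plin1 and Plin4 had the log2 fold changes farthest from 0 in kidney, and Cidea the widest spread. Plin4 was at -0.45 (SE 0.49, edgeR adjusted p = 0.564). Cidec read 32.5, 22.6, 71.8 and 24.2 CPM in young kidney and 18.2, 9.96, 42.6 and 8.14 CPM in old kidney. Replicate 3 of the old group lay above 3 of the 4 young libraries, and the log2 fold change was -0.94 (SE 0.54, edgeR adjusted p = 0.265). Plin1 read 19.7, 12.9, 26.9 and 14.2 CPM in young kidney and 8.32, 6.53, 29.2 and 2.94 CPM in old kidney, with the highest value of all 8 libraries in old replicate 3 (log2 fold change -0.66, SE 0.59, edgeR adjusted p = 0.474). Cidea read 23.8, 5.75, 22.8 and 5.39 CPM in young kidney and 7.66, 3.57, 41.6 and 0.281 CPM in old kidney. Without old kidney replicate 3, Plin1 and Cidec were both called lower in old kidney, each at a log2 fold change of -1.65, with edgeR adjusted p-values of 0.0252 and 0.0490. With all libraries kept and the replicate number as a block, Cidec was called lower (-1.08, SE 0.17, edgeR adjusted p = 0.0126) and Plin1 was not. The shares of all genes called in these 2 fits are not given, so these calls cannot be weighed against them.

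Adipocyte markers moved with these genes. The sum of Adipoq, Retn, Lep, Cfd and Adig, which encode hormones and other proteins of fat cells, was 277 to 516 CPM in young kidney and 63.1 to 366 CPM in old kidney, with the highest old value in replicate 3. All 5 markers were detected in every kidney library. Lep was called higher in old kidney and the other 4 had log2 fold changes under 0. Over the 8 young and old kidney libraries the log2 CPM of Plin1 followed the mean log2 CPM of the 5 markers with Pearson's r = 0.929 (exact permutation p = 4.22e-04, adjusted over 20 relations 0.00422) and Spearman's rho = 0.952 (exact permutation p = 0.00114, adjusted 0.00761). Without the 2 libraries farthest from the median of the markers r was 0.812. Cidea gave r = 0.917 (exact permutation p = 8.93e-04, adjusted 0.00446), rho = 0.810 (exact permutation p = 0.0218, adjusted 0.0484) and 0.644 without these libraries. Cidec gave r = 0.840 (exact permutation p = 0.0104, adjusted 0.0286), rho = 0.857 (exact permutation p = 0.0107, adjusted 0.0357) and 0.848 without them.

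Plin4 (r = 0.837), Pnpla2 (r = 0.814) and G0s2 (r = 0.824) also followed the markers over these 8 libraries, with exact permutation p-values adjusted over the 20 relations of 0.0193, 0.0286 and 0.0247. For the 3 genes rho was 0.857, 0.881 and 0.952, with adjusted exact permutation p-values of 0.0357, 0.0357 and 0.00761, and r without the 2 farthest libraries was 0.747, 0.911 and 0.877. Plin2 (r = 0.0209, rho = 0.143) and Plin3 (r = 0.109, rho = 0.0476) lay near 0 (exact permutation p = 0.960 and 0.804 for r). Plin5 (r = 0.569, rho = 0.714) and Cideb (r = 0.691, rho = 0.762) lay between these genes and the others, and did not pass after adjustment (adjusted exact permutation p = 0.231 and 0.104 for r, 0.105 and 0.0735 for rho). The 8 points pool young and old kidney, which differ in the marker sum. After removal of group means r was 0.944 for Plin1, 0.908 for Cidea, 0.843 for Cidec, 0.817 for Plin4, 0.797 for Pnpla2 and 0.825 for G0s2, and 0.234 for Plin2 and 0.544 for Plin3, given without a test. In the separate DMSO and 3C kidney series, r was 0.980 for Plin1 and 0.965 for Cidec (n = 8, exact permutation p adjusted 0.00446 and 0.00198), with rho of 0.810 and 0.952 (adjusted 0.0484 and 0.00761) and 0.898 and 0.929 without the 2 farthest libraries, and after removal of group means r was 0.992 and 0.976. Plin4 gave r = 0.802 (adjusted exact permutation p = 0.0291), rho = 0.833 (adjusted 0.0439) and 0.544 without these libraries. Cidea gave r = 0.613 (adjusted exact permutation p = 0.186), rho = 0.619 (adjusted 0.192) and 0.294 without these libraries, Pnpla2 gave 0.175 (adjusted exact permutation p = 0.826) and G0s2 0.545 (adjusted exact permutation p = 0.231). The part of attached fat in the changes of these genes was not tested.

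**Figure D3:**
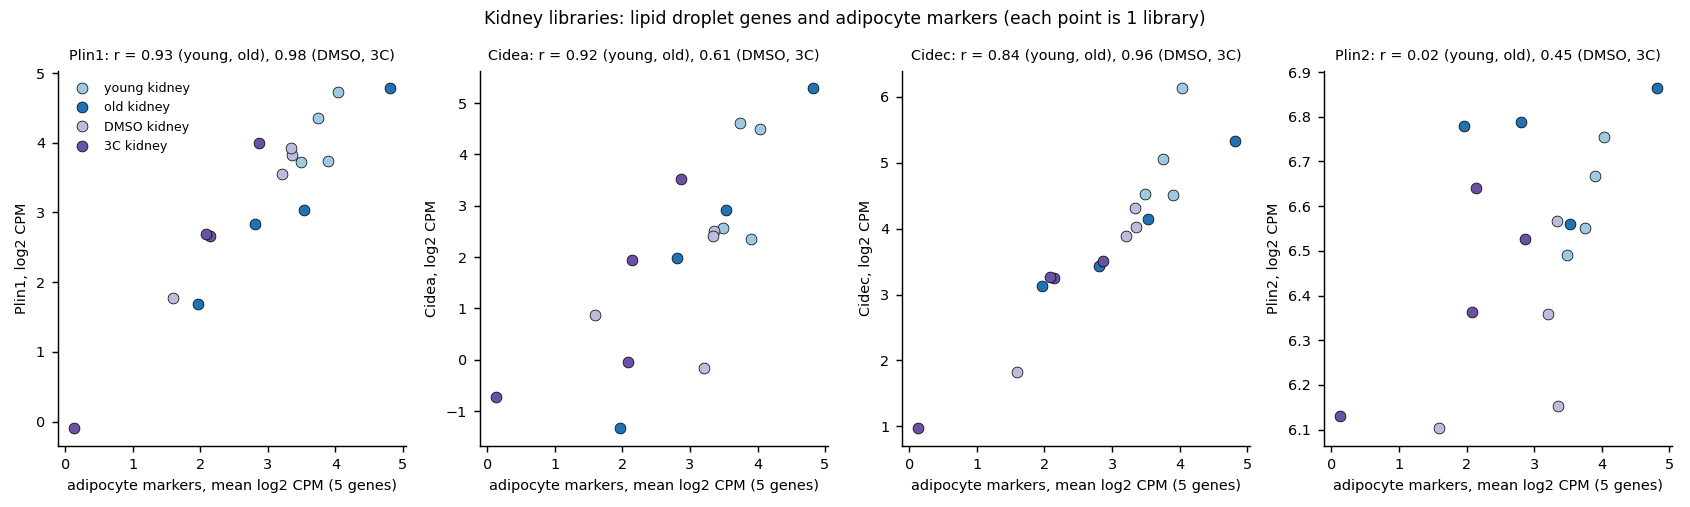
log2 CPM, scaled by library totals alone, of Plin1, Cidea, Cidec and Plin2 (vertical axes) against the mean log2 CPM of 5 adipocyte markers (horizontal axes) in 16 kidney libraries; each point is a library, coloured by group. Plin1 and Cidec rise along with the markers (r = 0.929 and 0.840 in the young and old series, 0.980 and 0.965 in the DMSO and 3C series), and r is 0.0209 and 0.446 for Plin2 (0.234 and 0.736 after removal of group means).

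In liver none of the droplet genes was called with age either. In all, 8 of the 10 genes passed the filter on low counts (Plin1 and Cidea did not), and 1.69% of the 12537 genes tested were called higher and 0.439% lower in old liver. DESeq2 called 0 of 8 too, while 2 of 8 had an unadjusted p under 0.05, 1 higher (9.99% of all genes) and 1 lower (4.74%). Plin3 was the nearest, with 35.3, 32.3, 27.8 and 26.0 CPM in young liver and 50.8, 37.6, 50.8 and 48.5 CPM in old liver. Every old library was above every young library, as for 6.05% of all genes tested (3.91% had every old library lower), and the log2 fold change was 0.63 (SE 0.17, edgeR adjusted p = 0.0855), a fold of 1.55. In DESeq2 the same gene had an adjusted p of 0.0179 at a log2 fold change of 0.62, below the fold threshold. Cidec was low throughout, with 1.27, 1.19, 2.27 and 2.29 CPM in young liver and 0.788, 0.659, 0.671 and 1.35 CPM in old liver (log2 fold change -1.004, SE 0.40, edgeR adjusted p = 0.262).

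The abundant liver genes did not move in one direction. Plin2 read 426, 371, 817 and 447 CPM in young liver and 689, 354, 431 and 439 CPM in old liver, Plin5 41.2, 41.2, 92.5 and 62.7 against 87.2, 46.1, 45.9 and 51.9 CPM, and G0s2 31.9, 34.9, 168 and 69.4 against 158, 65.6, 49.4 and 96.9 CPM. The same 2 libraries, young replicate 3 and old replicate 1, held the highest value of their group for all 3 genes. The log2 fold changes were -0.11 (SE 0.29), -0.04 (SE 0.30) and 0.29 (SE 0.52), with edgeR adjusted p-values of 0.950, 0.985 and 0.910. Pnpla2 had a log2 fold change of -0.40 (SE 0.21, edgeR adjusted p = 0.430). Whether the age effect differed between the organs was tested as an interaction, in which 0 of 10 genes had an edgeR adjusted p under 0.05 (0.871% of 15036 genes were higher in this sense and 0.845% lower). DESeq2 also gave 0 of 10, and 1 gene, Plin3, had an unadjusted p under 0.05, against 7.11% of genes in the higher and 6.92% in the lower direction (log2 difference 0.51, SE 0.20, edgeR adjusted p = 0.239).

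**Figure D4:**
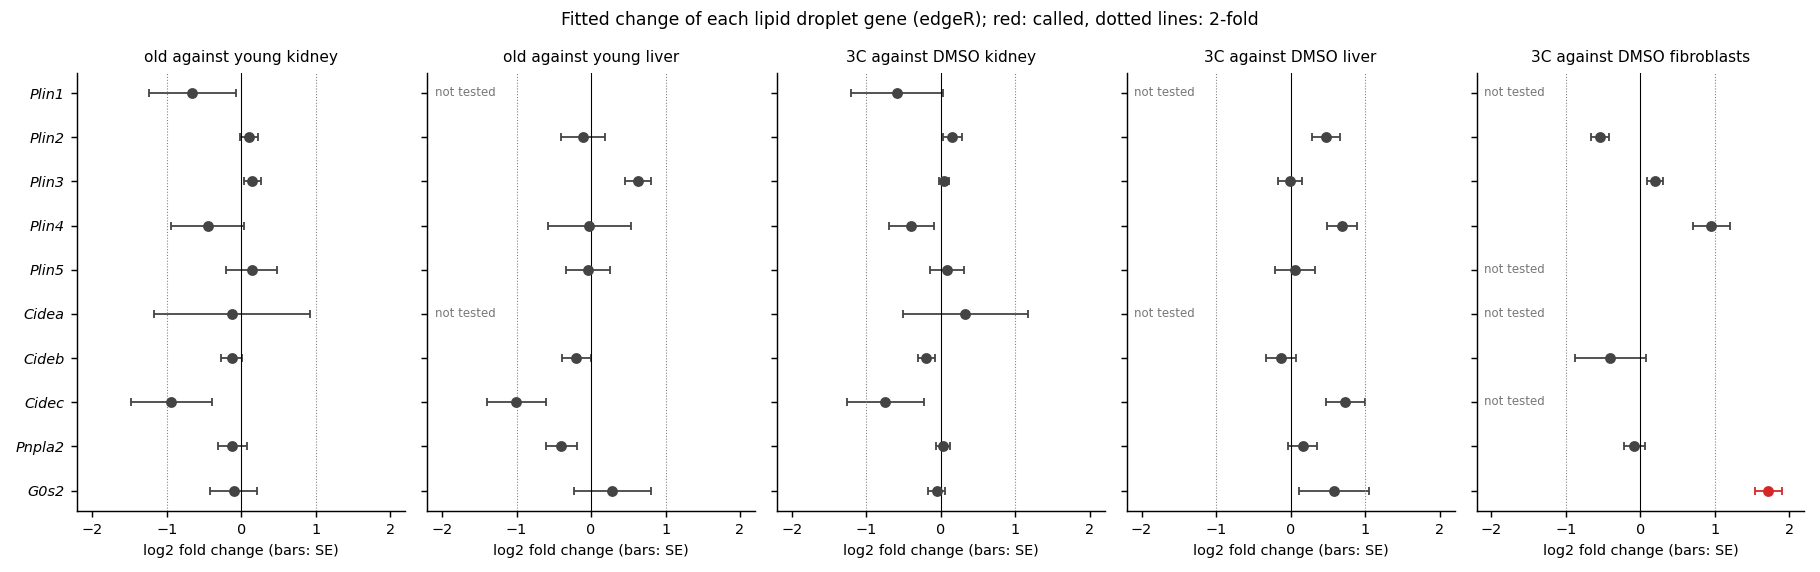
log2 fold change of each gene with its SE (horizontal bars) in the age comparisons of kidney and liver and in the 3C comparisons of kidney, liver and fibroblasts, from edgeR; red points are called, dotted lines mark a 2-fold change, and genes under the count filter are marked as not tested. G0s2 in fibroblasts (1.72) is the called point among all 5 comparisons.

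3C raised G0s2 in skin fibroblasts. G0s2, the inhibitor of adipose triglyceride lipase, read 3.84, 3.89 and 4.85 CPM with DMSO and 12.2, 12.9 and 16.1 CPM with 3C. The lowest 3C library was more than 2-fold above the highest DMSO library. The log2 fold change was 1.72 (SE 0.19, edgeR adjusted p = 0.00104), a fold of 3.29, and it was called in each of the 6 fits that left out 1 library, with log2 fold changes of 1.59 to 1.83. By an unadjusted p under 0.05, 2 droplet genes were higher (10.7% of genes) and 1 lower (9.47%). G0s2 was the only one called higher among the 6 droplet genes that passed the filter, while 1.23% of 13449 genes were called higher and 0.632% lower.

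Pnpla2 itself, the lipase that G0s2 inhibits, read 45.9, 39.9 and 56.4 CPM with DMSO and 43.3, 44.2 and 46.8 CPM with 3C. These groups overlapped (log2 fold change -0.08, SE 0.14, edgeR adjusted p = 0.787). Per kb of exon, Pnpla2 and G0s2 stood at 15.7 ± 2.77 and 4.82 ± 0.656 CPM with DMSO and at 14.8 ± 0.609 and 15.8 ± 2.40 with 3C. The coactivator of the lipase, Abhd5, had a log2 fold change of 0.05 (SE 0.12, edgeR adjusted p = 0.864).

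Among the perilipins of fibroblasts, Plin2 was the one that passed the adjusted p, with a change of less than 2-fold. It read 190, 169 and 194 CPM with DMSO and 111, 135 and 133 CPM with 3C. The groups did not overlap, and the log2 fold change was -0.54 (SE 0.12, edgeR adjusted p = 0.0361), which passed the adjusted p but not the fold threshold. By the adjusted p alone 1 of 6 droplet genes was lower, against 1.78% of all genes, and 1 higher, against 2.43%. Plin4 read 1.94, 2.47 and 1.89 CPM with DMSO and 4.72, 3.96 and 3.56 CPM with 3C (log2 fold change 0.95, SE 0.25, edgeR adjusted p = 0.0572). Plin3 read 135, 128 and 124 CPM with DMSO and 143, 155 and 147 CPM with 3C (log2 fold change 0.20, SE 0.11, edgeR adjusted p = 0.335). In all, 3 of the 6 genes tested had every 3C library above every DMSO library, against 13% of all genes, and 1 had every 3C library below, against 12.5%. Plin4 passed the adjusted p in DESeq2 (0.0250), and Plin2 no longer passed it with the replicate number as a block (edgeR adjusted p = 0.0700).

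Other transcripts of these cultures moved too. The sum of 9 macrophage markers was 291 to 381 CPM with DMSO and 112 to 181 CPM with 3C, with Lyz2 called lower (log2 fold change -1.35, SE 0.18, edgeR adjusted p = 0.00270) and Clec4f at 0, and the sum of 6 fibroblast markers was 14392 to 18597 and 14369 to 18148 CPM. Their part in the change of G0s2 was not tested. Lpl, the lipoprotein lipase that frees fatty acids for uptake, was called higher with 3C at a log2 fold change of 1.28 (SE 0.26, edgeR adjusted p = 0.0215). Of the remaining genes of fatty acid uptake, 3 were tested and none was called.

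In kidney no droplet gene was called with 3C, and 0% of the 14974 genes tested were called in either direction, whereas DESeq2 called 8 genes lower and 0 higher. None of the 10 droplet genes had an unadjusted p under 0.05, against 4.84% of genes in the higher and 7.09% in the lower direction, and DESeq2 called 0 of 10. The libraries overlapped for all 10, against 3.11% of genes with every 3C library higher and 3.84% with every one lower. Plin2 read 82.1, 67.3, 70.2 and 93.4 CPM with DMSO and 104, 81.5, 91.9 and 71.0 CPM with 3C (log2 fold change 0.15, SE 0.13, edgeR adjusted p = 0.699). G0s2 read 29.9, 23.5, 24.6 and 29.1 CPM with DMSO and 23.3, 23.6, 31.1 and 25.0 CPM with 3C (log2 fold change -0.06, SE 0.11, edgeR adjusted p = 0.891). The groups overlapped for both genes. Cidec, with 14.7, 3.38, 16 and 19.5 CPM against 9.79, 9.44, 11.3 and 1.88 CPM, and Plin1, with 11.7, 3.25, 13.8 and 14.9 CPM against 6.47, 6.33, 15.9 and 0.847 CPM, were lowest in 3C replicate 4, where the adipocyte marker sum was also lowest at 6.26 CPM, against 39.3 to 118 CPM with DMSO. All 5 adipocyte markers had log2 fold changes under 0, with a median of -0.82, and their part in the values of Cidec and Plin1 was not tested.

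In liver no droplet gene was called with 3C either, with 0% of the 13042 genes called in either direction by edgeR and 2 called higher by DESeq2, neither of them a droplet gene. Of the 8 genes tested, 3 had an unadjusted p under 0.05 in the higher direction, against 1.91% of all genes, and 0 in the lower, against 1.43%. Plin4 read 7.23, 5.11, 5.98 and 7.27 CPM with DMSO and 12.9, 11.7, 8.10 and 8.57 CPM with 3C, with every 3C library above every DMSO library, as for 1.1% of all genes (1.11% had every one below). Its log2 fold change was 0.69 (SE 0.20, edgeR adjusted p = 0.9996). Cidec read 1.96, 1.97, 1.68 and 2.69 CPM with DMSO and 4.71, 3.44, 2.66 and 3.00 CPM with 3C, with the lowest 3C value just under the highest DMSO value (log2 fold change 0.73, SE 0.26, edgeR adjusted p = 0.9996). Plin2 read 320, 270, 417 and 323 CPM with DMSO and 361, 374, 572 and 542 CPM with 3C (log2 fold change 0.48, SE 0.19, edgeR adjusted p = 0.9996). None of the 3 changes passed the correction over all genes.

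The difference of the 3C effect between liver and kidney was tested as an interaction, in which 0% of 15526 genes had an edgeR adjusted p under 0.05 in either direction, and DESeq2 gave 0 as well. Of the 10 droplet genes 2 had an unadjusted p under 0.05, Plin4 (log2 difference 1.07, SE 0.39) and Cidec (1.46, SE 0.68), against 2.11% of genes higher and 1.46% lower, both with an edgeR adjusted p of 0.9999. The effect in fibroblasts was not tested against that in the organs.

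ATAC-seq was read as the highest fold enrichment of a peak within 1 kb of any annotated start site of a gene, in each library. The heights were not scaled between libraries. Peak rows per library numbered 141469 to 151746 in young and 108883 to 127836 in old kidney. In liver they numbered 145571 to 150183 in young and 125746 to 154095 in old libraries. Their part in the differences of height was not tested. Each group had 3 libraries, so an exact two-sided permutation test cannot give a p below 0.1. Plin3 was higher in every old library than in every young one in both organs. Its values in kidney were 5.06, 5.27 and 5.34 in young and 6.06, 6.5 and 6.57 in old libraries, with means of 5.22 ± 0.146 and 6.38 ± 0.274 (SD, n = 3, exact permutation p = 0.1). In liver they were 3.97, 2.74 and 3.97 in young and 4.63, 5.28 and 6.26 in old libraries, with means of 3.56 ± 0.709 and 5.39 ± 0.821 (exact permutation p = 0.1). Plin3 was the 1 of 10 genes with such an increase in each organ, against 13.1% of 17808 genes with a peak in kidney and 6.96% of 17929 in liver.

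Peaks over the Plin3 promoter window printed above had a fold enrichment of 4.08 to 5.27 in young and 6.06 to 6.57 in old kidney. In liver they stood at 2.74 to 3.97 in young and 2.41 to 3.55 in old libraries, so the higher values of old liver came from a peak outside that window. The mRNA of the gene had a log2 fold change with age of 0.63 in liver and 0.15 in kidney, neither of them called.

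In liver 3 of the 10 genes were lower in every old library than in every young one, against 6.22% of genes, and in kidney 0 were, against 9.56%. They were Plin4, Plin5 and G0s2. Among peaks whose −log10 q reached 5, Plin5 libraries overlapped in height and Cideb was lower in its place. G0s2 read 4.07, 3.83 and 4.23 in young and 2.68, 3.50 and 2.32 in old liver (exact permutation p = 0.1). Plin4 read 4.22, 3.32 and 3.47 in young and 2.55, 2.56 and 2.88 in old liver (exact permutation p = 0.1), and its printed promoter window had a peak in 2 of 3 young and 0 of 3 old liver libraries. The highest peak over that window in young liver was 2.59, so the values of Plin4 came from peaks outside it. Plin5 read 2.84, 2.33 and 2.72 in young and 2.22, 2.25 and 0 in old liver, the 0 standing for a library without a peak (exact permutation p = 0.1). The RNA levels of these 3 genes in old and young liver overlapped. Over all 12 libraries peaks were scarcest at Cidec, with a peak in 1 of 3 libraries in young kidney, old kidney and old liver and in 2 of 3 in young liver.

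**Figure D5:**
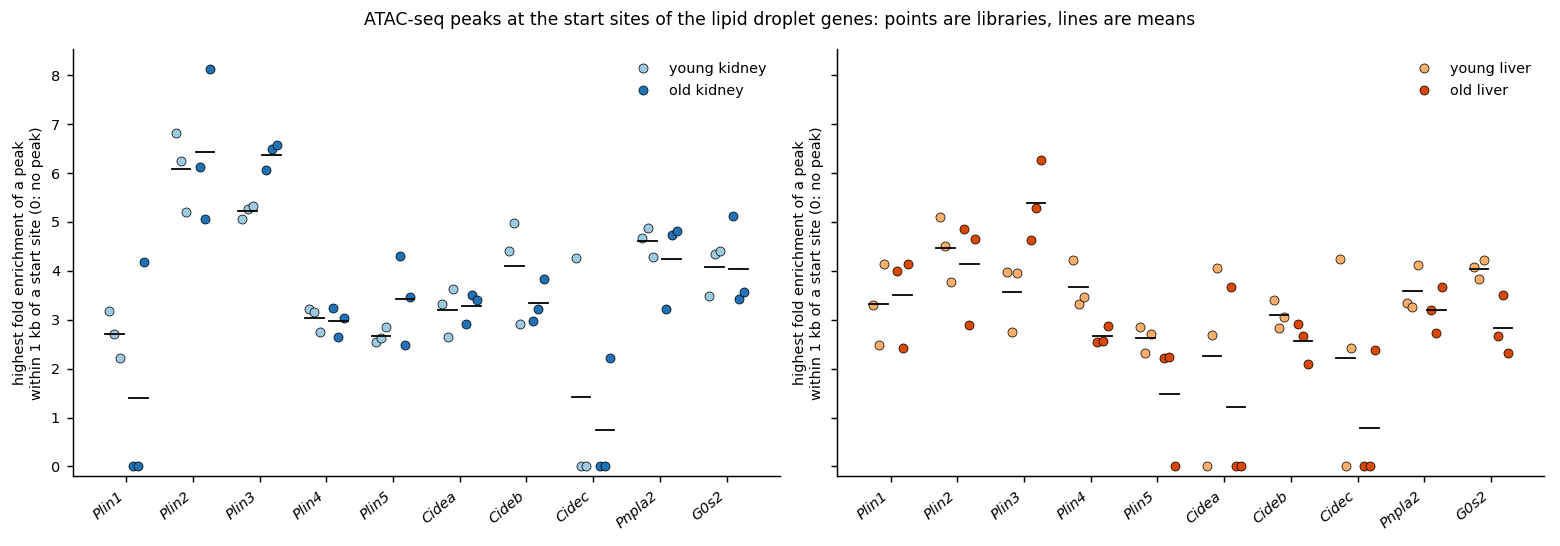
Highest fold enrichment of an ATAC-seq peak within 1 kb of a start site (vertical axis, 0 where no peak was called) for each gene in young and old kidney (left) and liver (right); points are libraries and lines are means of 3. Old and young points separate for Plin3 in both organs (5.22 and 6.38 on average in kidney, 3.56 and 5.39 in liver) and, downward, for Plin4, Plin5 and G0s2 in liver.

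Genes with the most similar pattern were sought for 5 members, as Pearson's r of log2 CPM after removal of group means over the 16 libraries of each organ. For Cidec in kidney they were Adipoq (r = 0.974), the adipocyte receptor gene Adrb3 (0.919) and Car3 (0.916), among 13450 genes. For Plin2 in kidney they were Cyp4b1 (0.847), Cyp4a10 (0.831) and Hoxc9 (0.828), for Plin5 Krt5 (0.864), Aldh3a1 (0.834) and Upk2 (0.819), for Pnpla2 Tmem116 (0.845), Gpank1 (0.843) and Lhx1os (0.842), and for G0s2 Zfp688 (0.938), Gstm1 (0.904) and Cenpv (0.899). In liver, among 11594 genes, those most like G0s2 were Nubp2 (0.897) and Tmem42 (0.896), and those most like Plin5 were Tubb4b (0.932), Nubp2 (0.893) and Plpp5 (0.868). Those most like Plin2 were Chrna2 (0.888), Vnn1 (0.878) and Agtpbp1 (0.858), those most like Cidec were Grhpr (0.839), Dnd1 (0.831) and Nr1h4 (0.823), and those most like Pnpla2 were Tbc1d17 (0.860), Mgat4b (0.857) and Klhdc3 (0.850). These values describe 16 libraries of 2 series, whose depth ran from 14.2 M to 43.7 M. They were picked as the highest of 13450 or 11594 values, and the height that unrelated genes would reach was not tested.

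Among the members themselves, Plin1 and Cidec (r = 0.939) and Plin4 and Cidec (r = 0.844) varied together in kidney. In liver Plin5 and G0s2 varied together (r = 0.928), as did Plin2 and G0s2 (r = 0.713), while Plin5 and Pnpla2 ran in opposite directions (r = -0.790).

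The wider droplet pathway was described with lists of related genes. With age in kidney 0 of 6 lipases and regulators, 0 of 11 tested genes of droplet formation and surface, and 1 of 13 genes of triglyceride and sterol ester synthesis were called. The latter was Mogat2, a monoacylglycerol acyltransferase, with a log2 fold change of -1.94 (SE 0.28, edgeR adjusted p = 0.00253). The medians of the 3 lists were -0.06, -0.02 and -0.14, against 0.02 over all genes. Among 7 tested genes of fatty acid uptake and binding Lpl was called lower (-1.22, SE 0.31, edgeR adjusted p = 0.0312) and Fabp1 higher (2.36, SE 0.55, edgeR adjusted p = 0.0234), and the median was -0.06. Fabp1 had a log2 fold change of 10.51 between young liver and young kidney, the 3 hepatocyte markers tested all lay above 0 in old kidney with a median of 2.82 (none called), and old kidney replicate 2 held 2752 CPM of Alb. The part of hepatocyte RNA in the value of Fabp1 was not tested. Among 14 tested PPAR factors and targets Pdk4, a kinase that limits glucose oxidation, was called lower (-1.25, SE 0.30, edgeR adjusted p = 0.0271), and the median was -0.34. All 8 macrophage markers tested were called higher in old kidney, with a median of 2.60. The 6 fibroblast markers all lay above 0 (median 0.55), with Thy1 and Lum called higher. The part of these markers in the calls of the lists was not tested.

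With age in liver 0 of 6 lipases and regulators, 0 of 11 synthesis genes and 0 of 12 droplet formation genes were called, with medians of -0.10, -0.14 and -0.07 against 0.0035 over all genes. Cd36, a fatty acid transporter, and Lpl were called higher in old liver, at 1.32 (SE 0.20, edgeR adjusted p = 0.00852) and 1.31 (SE 0.25, edgeR adjusted p = 0.0251). The median of the 8 uptake genes was -0.40. None of 16 PPAR factors and targets was called, and their median was -0.56. Of the 9 macrophage markers 2, Cd68 and Lyz2, were called higher, with a median of 0.88. Of the 6 hepatocyte markers 1 lay above 0 and none was called, and the median of their sum was 153827 CPM in young and 102884 CPM in old liver. The part of these markers in the median of the PPAR list was not tested.

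With 3C none of the genes of these lists was called in kidney or liver. Of the PPAR factors and targets 12 of 14 in kidney and 15 of 16 in liver had a log2 fold change above 0, with medians of 0.43 and 0.47 against 0.0038 and -0.0014 over all genes, while the 10 droplet genes in kidney and the 8 tested in liver had medians of -0.01 and 0.32. Macrophage and fibroblast markers lay the other way in the same comparisons, with 0 of 8 macrophage markers (median -0.54) and 0 of 6 fibroblast markers (median -0.72) above 0 in kidney, and 1 of 9 (median -0.40) and 0 of 6 (median -0.24) in liver. The 2 kidney tubule and podocyte markers tested in liver both lay above 0 (median 2.15), with a sum of 0.618 to 23.7 CPM with 3C and 0.402 to 2.44 CPM with DMSO. None of these markers was called, and their part in the values of the PPAR list was not tested. In fibroblasts 0 of 5 lipases and regulators, 0 of 12 synthesis genes, 0 of 10 droplet formation genes and 0 of 13 PPAR factors and targets were called, with medians of 0.21, -0.19, -0.01 and -0.04 against 0.01 over all genes.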

How the data were processed

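RNA-seq gave gene count files with 1 file per library, and ATAC-seq gave a peak list per library. Per the submitters' processing notes and the methods, the authors trimmed reads with Trimmomatic 0.39, aligned RNA-seq reads with HISAT2 2.2.1 and ATAC-seq reads with Bowtie2 2.3.5.1 to mm10, and counted reads per gene with HTSeq 0.12.4 without regard to strand. The deposited counts are whole, unnormalised read counts per gene. The deposited peak lists give for each peak a fold enrichment, a ratio of its pileup over the local background by MACS2, and −log10 p and q values. Peaks were called by the authors in each library on its own.

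Counts were tested with edgeR 4.0.16 in R 4.3.3 (quasi-likelihood, TMM scaling, filterByExpr with a minimum count of 10), with DESeq2 1.42.0 as an alternative, and p-values were adjusted over all genes tested. Each comparison was fitted on its own groups, and interactions on 4 groups. Levels are CPM scaled with the TMM factors and, per kb, divided by the union exon length of GENCODE vM21, which held 24542 of the 24984 gene names. For correlations and likeness log2 CPM was scaled by library totals alone, without TMM factors, and had a prior count of 2. The HTSeq rows that name no gene were left out. For ATAC-seq the highest fold enrichment of a peak within 1 kb of an annotated start site was taken, and 0 where there was none. Means of 3 libraries were compared with exact two-sided permutation tests in scipy 1.17.1. Promoter windows came from RefSeq, GRCm38.p6. Floors for genes with no read are 3 counts over the group and cover counting error only.

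The 10 members, the pathway and marker lists and the rule for named genes were chosen with earlier results of these data known. All 10 members are named, other list genes where they were called, and as genes of similar pattern the 3 with the highest r for 5 members in each organ, of which 1 is not reported here. Replicates of a group were compared in 54 pairs, with a chi-square per degree of freedom of at least 7.776, so no 2 replicates of a group were repeats of 1 library. Libraries of different groups were not compared in this way. In young mice the 4 same-numbered pairs of kidney and liver libraries deviated from their group means with correlations of 0.105 to 0.458. The same number was the best match for 2 of the 4. Between DMSO and 3C liver it was the best match for 3 of 4. Whether the numbers pair the organs is thus not settled, and the main fits used no pairing. In simulated counts with 200 genes changed 4-fold, 168 to 196 were recovered by the adjusted p alone in the 9 comparisons, with 5 to 14 false calls. The simulated spread followed a trend shared by genes of like abundance. It does not tell how often smaller changes, or changes of genes with a wider spread, would be found.

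Alternatives were DESeq2, RLE scaling, no filter, a replicate block, the adjusted p alone, a filter on a mean of at least 1 CPM, leaving out each library, and for peaks a −log10 q of at least 5 and a window of 2 kb. Scaling by library totals, and r after removal of group means for the kidney relations, were added after the data were seen. Protein sequences were not used here.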

Additional observations from a re-analysis of the deposited data

Results flagged for a closer look

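Of 72 combinations of a droplet gene and a group of 4 libraries, examined for a library far from the others, 2 had one. Chance gives about 1 in 20, so 2 of 72 is not more than chance gives. In young liver the highest Plin2 value, 817 CPM in replicate 3, stood apart from the other 3 libraries (371 to 447 CPM). In old liver the highest Plin5 value, 87.2 CPM in replicate 1, stood apart from the other 3 (45.9 to 51.9 CPM). The same libraries also held the highest G0s2 values of their groups, 168 and 158 CPM.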

How the results depend on the processing

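Over 9 RNA-seq comparisons 82 values of droplet genes were tested, of which 16 were called. None of the 16 changed sign in any alternative, while 30 of the other 66 did in at least 1. G0s2 in 3C fibroblasts was called in every alternative run. In old kidney 0 genes were called lower, against 1 with the replicate block (Cidec, log2 fold change -1.08, edgeR adjusted p = 0.0126) and 0 to 2 when a library was left out, without the shares of all genes called in those fits. The numbers were not taken to pair these samples, since 1 of 4 same-numbered correlations was over 0.1. In 3C fibroblasts 0 genes were called lower, against 1 (Plin2) by the adjusted p alone. With library totals, an alternative chosen after seeing the data, 2 genes in place of 4 were called higher and 6 in place of 4 lower in young liver than young kidney, and 3 in place of 4 higher and 5 in place of 3 lower in DMSO liver than DMSO kidney. On that scale the median log2 fold change of all genes was itself -1.16 in young and -1.06 in DMSO mice. The shares of all genes called with library totals are not given. The replicate block changed no other call of a droplet gene, including between young liver and young kidney. For start sites in kidney, leaving out a library gave 1 to 2 genes higher in old libraries (1 with all) and 0 to 1 lower (0 with all), and in liver 3 to 5 lower (3 with all). Groups separate more easily with fewer libraries, and the shares over all genes were counted with all libraries only. Among peaks whose −log10 q reached 5 the lower genes in liver were Plin4, Cideb and G0s2, without Plin5. The cause of these changes was not tested. The biological coefficient of variation, a measure of the spread between replicates, was 0.237 in kidney and 0.292 in liver with age. With 3C it was 0.12 in kidney, 0.221 in liver and 0.153 in fibroblasts. Between the organs it was 0.214 in young and 0.162 in DMSO mice. Counts of Plin1, Cidea and Cidec in liver are too low for small changes to be seen.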

Other observations

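Ucp1, the uncoupling protein of brown fat, read 76.2, 13, 32.9 and 8.80 CPM in young kidney and 15.8, 5.19, 110 and 0.043 CPM in old kidney. It had no read in any liver or fibroblast library. Its highest old value lay in replicate 3, the library that also held the highest Plin1 and Cidea values of the old kidney group.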
